A study of Homo sapiens with 4 samples.

Results

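The 150 genes described here stood highest, in relative terms, in both libraries of doxorubicin-treated cells. Counts were scaled to CPM (a gene's count per 1000000 counts of its library), and only the 13557 genes with at least 1 CPM in both doxorubicin libraries were ranked, out of 59050 in the files. Each gene's lower doxorubicin CPM was divided by its higher untreated CPM plus 0.1, and the 150 genes with the largest ratio were taken, 1.11% of those ranked. The 3 genes among them that are outside this account leave 147 genes, which are described below. The same values chose the genes and give the sizes below, so the sizes are a description and no test is made of them.

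Doxorubicin is an anthracycline that intercalates into DNA and traps topoisomerase II on it, and the resulting strand breaks activate the tumour suppressor p53. The hypoxia-inducible factors run another stress pathway: they accumulate when prolyl hydroxylases slow down and switch on glucose transport, glycolysis, pH control and angiogenesis genes. Keratinocyte-type protease inhibitors and calgranulins, cytokines, and NRF2-type detoxifying enzymes are known in many epithelial cells as genes of stress and differentiation.

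The cells are labelled HepG2, an established line from a human liver tumour. The design text describes 2 untreated (0 h) and 2 treated libraries, biological replicates, the latter from cells given 1 µg/ml doxorubicin for 24 h to raise p53. The sample titles, from which the groups were taken, read nop53 or p53 and do not name the drug. The treatment tag reads untreated in the nop53 samples and p53-miRNA in the p53 samples, and all 4 carry the same treatment text, so the p53 samples were read as the doxorubicin group through the design text. No vehicle control and no untreated cells kept for 24 h were labelled, so drug and time in culture cannot be told apart.

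The libraries held 27572740 to 36272180 counts. Untreated replicate 2 stood apart: its Pearson correlation of log2 CPM across the 17479 tested genes was 0.887 with untreated replicate 1, against 0.988 between the doxorubicin libraries and 0.979 between untreated replicate 1 and doxorubicin replicate 1. In 81.6% of tested genes its level was either above or below all 3 of the others. The label HepG2 was not borne out by liver markers: 13 of 19 hepatocyte markers were under 1 CPM in every library, and ALB, the gene of serum albumin, had at most 0.109 CPM. CPS1, a urea cycle enzyme, made up nearly all of the hepatocyte list's summed 343 to 1082 CPM, so the cells are called here by their label only.

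The ratio fell steeply at the top of the ranking and then slowly. Its highest value among the 147 genes was 34.9 and its median 3.48, against a median of 0.865 over all ranked genes. It was at least 10 in 9 of the described genes, at least 5 in 36 and at least 3 in 104. The last gene taken, AC091173.1 (rank 150), had a ratio of 2.61 and the next gene, GPX3, an extracellular glutathione peroxidase, one of 2.60. AC091173.1 had 0.303 and 0.242 CPM without and 1.17 and 1.05 CPM with doxorubicin, and GPX3 had 0.303 and 0.277 CPM without and 1.05 and 1.38 CPM with doxorubicin. Just inside the limit PROM1, a membrane glycoprotein, and AC104248.1 also had ratios of 2.61 and 2.61, while AL138828.1 and AL109615.2 just outside it both had 2.58. With the groups exchanged, among the 12549 genes with at least 1 CPM in both untreated libraries, 5 passed the same ratio of 2.61.

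**Figure D1:**
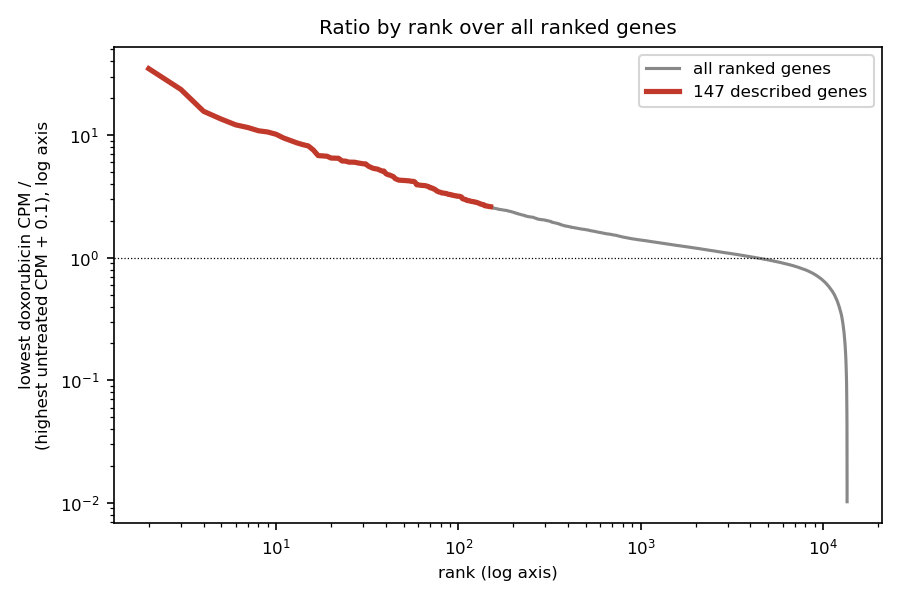
Ratio of the lower doxorubicin CPM to the higher untreated CPM plus 0.1 (vertical, log axis) against rank (horizontal, log axis) for the ranked genes, without the genes outside this account. The 147 described genes (red) run from 34.9 down to 2.61, with no step at the limit, and the dotted line marks a ratio of 1.

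Most of the set had low counts. The lower doxorubicin CPM was from 1 to under 3 in 60 genes, from 3 to under 10 in 47, from 10 to under 100 in 33 and at least 100 in 7, with a median of 3.76 CPM against 24.7 CPM over all ranked genes. Per kilobase of merged exon, the median doxorubicin level was 1.40 CPM per kb, against 5.51 CPM per kb over the ranked genes with annotation. All 147 genes together took 784 and 511 CPM of the untreated libraries and 3728 and 3278 CPM of the doxorubicin libraries. IGFBP3 was the largest part of these sums, and without it they were 544 and 339 CPM untreated and 2532 and 2267 CPM treated. In 35 genes neither untreated library had more than 10 counts, and in 25 genes at least 1 untreated library had 3 or fewer, so many of the ratios rest on small untreated counts. In bulk RNA such as this, a higher level per cell and a larger share of expressing cells cannot be told apart.

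The rule fixes the order of the groups: in all 147 genes both doxorubicin libraries were above both untreated libraries, as they were in 30.3% of all tested genes. The opposite order was found in 11.5% of tested genes. Part of this imbalance is one of scale, since the median log2 difference between the groups over all tested genes was 0.21 on column totals, 0.06 with TMM factors and 0.01 with RLE factors. With RLE factors the 2 shares were 19.2% and 20.2%, and all 147 genes still had both doxorubicin libraries on top. The quasi-likelihood test of edgeR called 0 of the 17479 genes (0%), and hence none of the 147, when an adjusted p under 0.05 and a 2-fold difference were both asked for. At an unadjusted p under 0.05 the same edgeR test gave 768 genes (4.39%), of which 465 (2.66%) were higher with doxorubicin, 146 of them among the 147. DESeq2 called 89 of 15784 genes (0.564%), 46 (0.291%) as higher, of which 43 were among the 147, and edgeR with the replicate number as a block called 20 (0.114%), 16 (0.0915%) as higher, of which 15 were. The ranking used the same contrast, so none of these counts is evidence about the genes.

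Replicates differed more among the untreated than among the treated libraries. The median gap between the untreated libraries was 0.60 on the log2 scale in the 147 genes and 0.77 over the ranked genes, and between the doxorubicin libraries 0.25 and 0.21. These gaps were taken on log2(CPM + 0.1). On that scale a gap of over 2-fold separated the untreated libraries in 45 of the 147 genes and the doxorubicin libraries in 1. The added 0.1 narrows the gaps of low genes. Without it more genes would be counted. Examples for the untreated libraries are INHBA (0.0827 and 0.208 CPM), TREM1 (0.110 and 0.0346 CPM) and LCN2 (0.0827 and 0.242 CPM). For the doxorubicin libraries SPRR2D (3.21 and 1.60 CPM) would be counted. Untreated replicate 1 was the higher untreated library, and so set the ratio, in 91 genes, and untreated replicate 2 in 56. In the text that follows, values are in CPM, replicate 1 before replicate 2, and a fold with an interval is the ratio of pooled, depth-scaled counts with its exact 95% interval, which covers counting error only and not the spread between cultures.

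**Figure D2:**
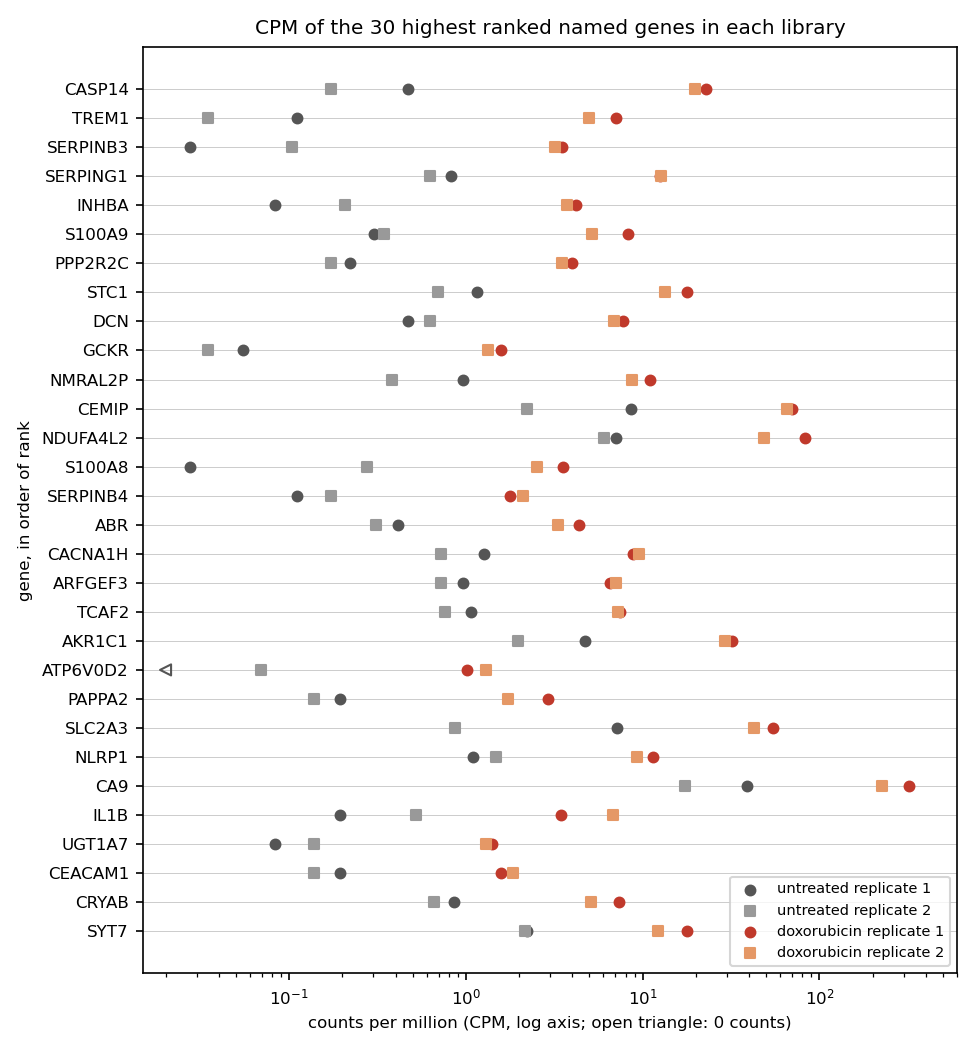
CPM (horizontal, log axis) of the 30 highest ranked genes with a gene symbol, one gene per line, in untreated (grey) and doxorubicin (red and orange) libraries, circles for replicate 1 and squares for replicate 2. CASP14 at the top lies at 0.469 and 0.173 CPM untreated and 22.8 and 19.8 CPM treated, and the open triangle marks the 0 counts of ATP6V0D2 in untreated replicate 1.

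Genes of oxygen, glucose and energy metabolism (13 genes, median ratio 4.27) held the genes with the highest treated level per kilobase of exon after IGFBP3. CA9 (chromosome 9, 35673928 to 35681159), a carbonic anhydrase on the cell surface that controls pH and is a standard marker of hypoxia, had 38.7 and 17.4 CPM without and 319 and 226 CPM with doxorubicin. Its doxorubicin libraries were far above the untreated ones, and untreated replicate 1 was the higher control. The log2 fold change of CA9 was 3.13 (SE 0.52), a pooled difference of 9.50-fold (9.06 to 9.96), and 35.7% of its exon bases overlap ARHGEF39, from which its reads cannot be separated without strand. NDUFA4L2, a mitochondrial protein induced in hypoxia, had 7.06 and 6.03 CPM without and 82.8 and 48.8 CPM with doxorubicin, with doxorubicin replicate 1 the higher of the treated libraries. SLC2A3, a high-affinity glucose transporter, had 7.17 and 0.866 CPM without and 54.6 and 42.8 CPM with doxorubicin, with untreated replicate 2 far below its partner.

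STC1, a secreted glycoprotein hormone, had the highest ratio of these genes (10.6), with 1.16 and 0.693 CPM in the untreated and 17.8 and 13.3 CPM in the doxorubicin libraries. GCKR, the regulator of glucokinase, was counted 2 and 1 times in the untreated and 54 and 37 times in the doxorubicin libraries, which is 31.9-fold (10.6 to 158). ENO2, the neuronal enolase of glycolysis, had 26.7 and 16.3 CPM without and 115 and 116 CPM with doxorubicin, and its treated libraries were nearly equal. BNIP3, a mitochondrial protein of mitophagy, had 65.5 and 33.9 CPM in the untreated and 217 and 199.7 CPM in the doxorubicin libraries, a log2 fold change of 1.91 (SE 0.42). ANGPTL4, an inhibitor of lipoprotein lipase, had 4.91 and 3.74 CPM without and 27.9 and 23.3 CPM with doxorubicin, with replicates of each group close together.

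The rest of the group had lower ratios. MXI1, a repressor that competes with MYC for MAX, had 20.9 and 14.6 CPM in the untreated and 63 and 69.1 CPM in the doxorubicin libraries. INSIG2, which holds the sterol sensor in the endoplasmic reticulum, had 12.8 and 4.22 CPM without and 34.1 and 37 CPM with doxorubicin. ARNT2, a partner of PAS-domain factors such as the hypoxia-inducible ones, had 23.5 and 2.46 CPM without and 64.6 and 67.5 CPM with doxorubicin, and untreated replicate 1 set its ratio of 2.73. The AMP deaminase gene AMPD3 and PANK4, of the pantothenate kinase family, had ratios of 3.84 and 2.73. Per kilobase of exon the treated levels were 199.9 and 141 CPM per kb for CA9, 53.6 and 49.3 CPM per kb for BNIP3, 29.5 and 17.4 CPM per kb for NDUFA4L2 and 26.8 and 27.1 CPM per kb for ENO2.

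The stretch before the start of 3 of these genes is shown because the hypoxia-inducible factors read a short core there, ACGTG or GCGTG on either strand. The bases are RefSeq promoter sequence (GRCh38.p14), trimmed to what lies before the annotated gene, and capitals mark every match to the core, overlapping matches included. LOX, described with the matrix genes, belongs to the same list. CA9 is read from chr9:35673678-35673927 on the plus strand, BNIP3 from chr10:131981968-131982173 and LOX from chr5:122078414-122078509 on the minus strand.
CA9: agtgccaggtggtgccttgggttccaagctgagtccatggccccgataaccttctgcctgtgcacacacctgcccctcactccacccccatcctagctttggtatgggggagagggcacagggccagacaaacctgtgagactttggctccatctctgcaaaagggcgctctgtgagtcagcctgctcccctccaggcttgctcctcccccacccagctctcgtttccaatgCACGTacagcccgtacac
BNIP3: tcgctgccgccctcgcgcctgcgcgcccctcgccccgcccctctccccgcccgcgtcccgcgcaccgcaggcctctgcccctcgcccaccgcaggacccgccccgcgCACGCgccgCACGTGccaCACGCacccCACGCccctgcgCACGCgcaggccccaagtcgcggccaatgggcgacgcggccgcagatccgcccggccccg
LOX: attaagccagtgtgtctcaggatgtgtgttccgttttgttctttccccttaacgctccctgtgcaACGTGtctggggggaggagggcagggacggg
The run before BNIP3 held 6 matches, and those before CA9 and LOX 1 each. In the whole windows of 250 bases before and 50 bases after each start, the core was found in 11 of 12 windows of the listed hypoxia genes among the 147. These are starts of 7 genes and overlap in part for LOX and INSIG2, so they are not separate observations. The core was found in 59 of 144 windows (41.0%) of all those of the 147 with a RefSeq promoter (95 genes). It was found in 48.4% of all 35116 windows. The 12 windows belong to genes listed for hypoxia, so their share is a description only. A match is a string of letters and says nothing of binding.

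MIR210HG, the host transcript of the hypoxia-induced microRNA miR-210, was also among the 147, with 2.56 and 0.104 CPM in the untreated and 15 and 8.99 CPM in the doxorubicin libraries. Untreated replicate 2 had 3 counts of it and the other untreated library 93, so the pooled difference of 8.37-fold (6.76 to 10.5) stands over a wide gap between controls. The mature miR-210 sequences lie within the host gene on the minus strand of chromosome 11, at chr11:568112-568133 for the 3p and chr11:568150-568171 for the 5p arm (RefSeq, GRCh38.p14). They are shown because the host gene is the readout here, with the seed (bases 2 to 8) in capitals, and mature microRNA was not measured in these libraries.
hsa-miR-210-3p: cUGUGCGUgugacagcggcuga
hsa-miR-210-5p: aGCCCCUGcccaccgcacacug

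Of 42 genes listed for hypoxia and glycolysis, 41 were tested and 8 were among the 147 (CA9, BNIP3, SLC2A3, ENO2, MXI1, LOX, ANGPTL4 and INSIG2). Both doxorubicin libraries were above both untreated libraries in 33 of the 41 genes (80.5%, against 30.3% of all tested genes) and below them in 0. Among the 33 listed genes that were not taken, the count was 25 above and 0 below on column totals, 23 and 1 with TMM factors and 21 and 1 with RLE factors. VEGFA, the angiogenic growth factor, had 117 and 114 CPM without and 301 and 262 CPM with doxorubicin and ranked 225. HK2, a hexokinase, had 89 and 30.3 CPM without and 227 and 219.9 CPM with doxorubicin. In ENO1 and TPI1, enzymes of glycolysis, the groups overlapped. ENO1 had 4049.6 and 3349.8 CPM without and 4154 and 3491 CPM with doxorubicin, and TPI1 had 871 and 1418 CPM in the untreated and 1252 and 979.7 CPM in the doxorubicin libraries. The edgeR quasi-likelihood test called 0 of the 41 at the adjusted threshold, with a median over the list of 1.00 on the log2 scale.

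**Figure D3:**
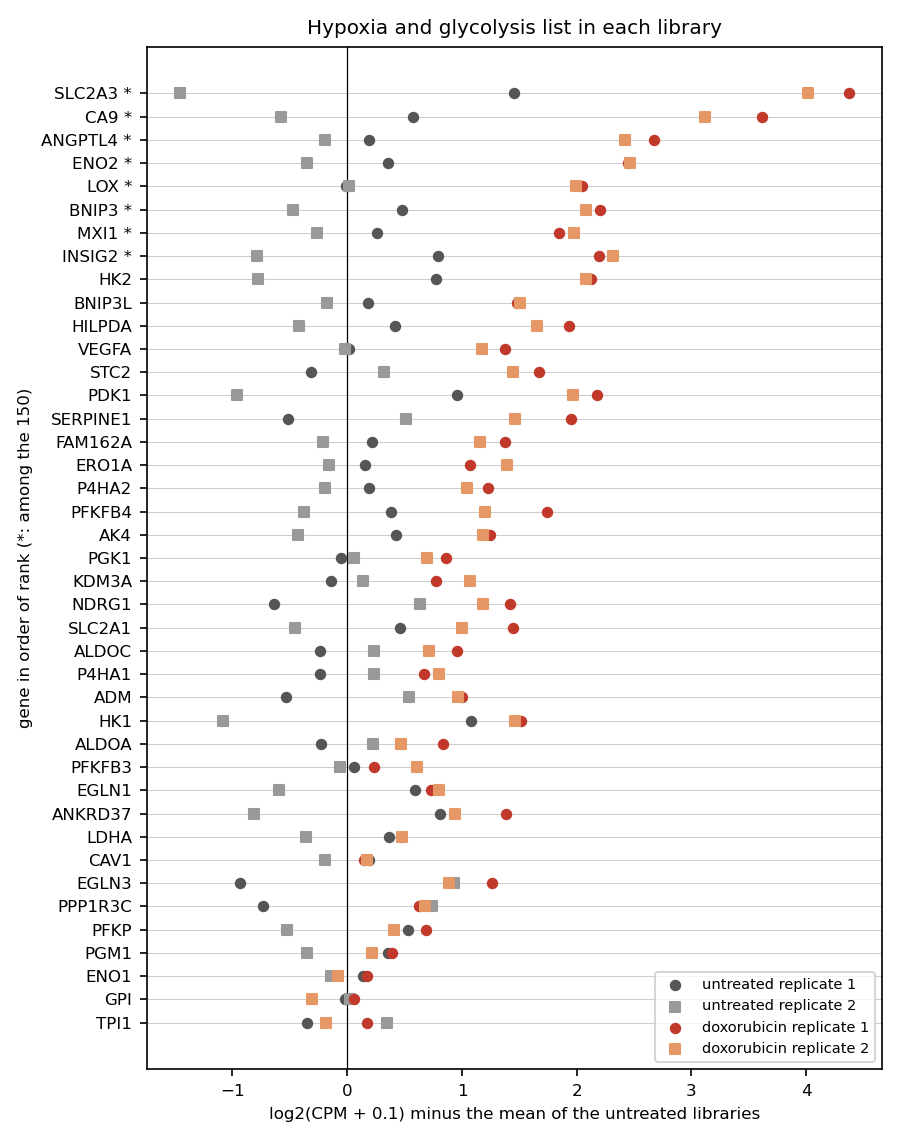
The 41 tested genes of the hypoxia and glycolysis list in order of rank, with log2(CPM + 0.1) of each library minus the mean of the untreated libraries on the horizontal axis (grey untreated, red and orange doxorubicin, asterisks for genes among the 150). The doxorubicin points lie to the right of both untreated points in 33 of the 41 genes, and at the bottom of the plot the 4 libraries interleave.

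Proteases and their inhibitors (11 genes, median ratio 4.36) held the gene with the highest ratio of the 147. CASP14 (chromosome 19, 15049480 to 15058293), a caspase of keratinocyte cornification rather than of apoptosis, had 0.469 and 0.173 CPM without and 22.8 and 19.8 CPM with doxorubicin. Its counts were 17 and 5 untreated and 781 and 547 treated, so the groups were far apart, with a log2 fold change of 5.83 (SE 0.66) and a pooled difference of 63.5-fold (41.8 to 102). SERPING1, the C1 inhibitor that restrains the complement cascade, had 0.827 and 0.623 CPM in the untreated and 12.5 and 12.7 CPM in the doxorubicin libraries, and replicates of each group lay close together.

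The clade B serpins SERPINB3, SERPINB4 and SERPINB7, intracellular inhibitors known from squamous epithelium, lie within 109 kb of each other on chromosome 18. SERPINB3 had 1 and 3 counts in the untreated and 120 and 88 in the doxorubicin libraries, which is 54.7-fold (21.1 to 203). SERPINB4 had 0.110 and 0.173 CPM without and 1.78 and 2.10 CPM with doxorubicin. SERPINB7 had 0.800 and 0.900 CPM in the untreated and 3.06 and 2.76 CPM in the doxorubicin libraries. In SERPINB3 and SERPINB4 the treated libraries were clear of the untreated ones, while the untreated level of SERPINB7 was itself near 1 CPM. SERPINB3 and SERPINB4 are near-identical copies and share reads, so how their counts divide is uncertain, and 36.3% of the SERPINB3 exon bases overlap SERPINB11.

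Their likeness is visible before the genes as well, where 197 of the 200 bases are identical (98.5%). The stretches are RefSeq sequence (GRCh38.p14) from chr18:63661894-63662093 and chr18:63644257-63644456, both on the minus strand, with the 3 bases that differ in capitals.
SERPINB3: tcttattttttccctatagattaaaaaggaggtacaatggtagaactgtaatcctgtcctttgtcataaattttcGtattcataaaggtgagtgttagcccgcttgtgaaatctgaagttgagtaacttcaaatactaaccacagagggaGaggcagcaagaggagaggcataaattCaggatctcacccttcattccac
SERPINB4: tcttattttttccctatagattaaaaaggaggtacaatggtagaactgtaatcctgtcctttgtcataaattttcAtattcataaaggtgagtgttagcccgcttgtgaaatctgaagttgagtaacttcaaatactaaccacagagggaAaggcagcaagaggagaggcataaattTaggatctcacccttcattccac

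PAPPA2, a metalloprotease that cleaves IGF-binding proteins, had 0.193 and 0.139 CPM without and 2.91 and 1.74 CPM with doxorubicin. SPINK1, a Kazal inhibitor of trypsin, had 1.60 and 5.26 CPM in the untreated and 14.1 and 16.7 CPM in the doxorubicin libraries, with untreated replicate 2 the higher control. SPINK6, a Kazal inhibitor of kallikreins, had 1.13 and 1.52 CPM without and 8.16 and 7.07 CPM with doxorubicin. The neutral endopeptidase MME, the tryptase TPSG1 and the metalloprotease ADAMTS16 had ratios of 3.64, 3.23 and 2.92 on doxorubicin levels of no more than 2.47 CPM.

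Genes of innate defence, cytokines and receptors otherwise known from leukocytes formed the largest group (20 genes, median ratio 3.41). TREM1, a receptor that amplifies inflammatory signals in myeloid cells, was counted 4 and 1 times untreated and 241 and 137 times treated, or 0.110 and 0.0346 CPM without and 7.02 and 4.97 CPM with doxorubicin. That is 79.6-fold (33.8 to 247) on pooled counts, with a log2 fold change of 6.08 (SE 0.83). The calgranulins S100A9 and S100A8, which pair into calprotectin and lie 29.0 kb apart on chromosome 1, were both taken. S100A9 had 0.303 and 0.346 CPM without and 8.25 and 5.15 CPM with doxorubicin. S100A8 had 0.0276 and 0.277 CPM in the untreated and 3.53 and 2.54 CPM in the doxorubicin libraries. In each calgranulin doxorubicin replicate 1 was the highest library and both treated libraries were far above the untreated ones.

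The inflammatory cytokine IL1B had 0.193 and 0.519 CPM without and 3.47 and 6.82 CPM with doxorubicin. CXCL8, the chemokine that draws neutrophils, had 1.49 and 3.95 CPM in the untreated and 13.3 and 19.1 CPM in the doxorubicin libraries. For both cytokines untreated replicate 2 was the higher control and doxorubicin replicate 2 the higher treated library. Of the 17 tested genes of the cytokine and chemokine list they were the only ones taken. On column totals 10 of the 17 had both doxorubicin libraries on top, against 30.3% of all tested genes. These 10 include IL1B and CXCL8, which the rule puts on top. NLRP1, an inflammasome sensor, had 1.10 and 1.49 CPM without and 11.4 and 9.28 CPM with doxorubicin. DMBT1, a mucosal scavenger receptor, had 6.09 and 1.07 CPM in the untreated and 45.2 and 29.3 CPM in the doxorubicin libraries. The interferon-stimulated genes taken were IFI44, SAMD9L and IFI27, with ratios of 3.93, 3.70 and 2.71. IFI27 had 0.0551 and 0.796 CPM without and 3.18 and 2.43 CPM with doxorubicin, so its untreated libraries differed widely. On column totals both doxorubicin libraries were on top in 14 of 29 tested genes of the interferon-stimulated list, against 30.3% of all tested genes. These 14 include the genes taken.

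CASP14 and CXCL8 hold a match to the AP-1 motif (TGANTCA, which FOS and JUN dimers bind) before their starts, and their upstream bases are shown as examples of it. Of the 144 windows, 24 (16.7%) held it on either strand, against 7.71% of all 35116 windows. Windows of 1 gene can overlap and share a match, as those of TNFSF14 do, so the windows are not separate observations. The RefSeq stretches (GRCh38.p14) lie at chr19:15049230-15049479 and chr4:73740319-73740518, both on the plus strand, with the match in capitals.
CASP14: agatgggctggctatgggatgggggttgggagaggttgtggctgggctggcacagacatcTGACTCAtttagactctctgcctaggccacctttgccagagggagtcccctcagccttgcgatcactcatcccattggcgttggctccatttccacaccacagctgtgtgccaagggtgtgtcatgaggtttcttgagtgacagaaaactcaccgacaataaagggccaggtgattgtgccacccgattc
CXCL8: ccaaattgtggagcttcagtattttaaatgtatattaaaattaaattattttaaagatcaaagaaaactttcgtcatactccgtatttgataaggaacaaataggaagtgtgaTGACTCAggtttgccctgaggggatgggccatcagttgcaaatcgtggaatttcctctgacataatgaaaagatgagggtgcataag
Other motifs were searched on both strands in the same windows, and the letters of the hypoxia core, the AP-1 motif and the CRE do not contain one another. The CRE TGACGTCA was found in 1 of 144 windows (0.694%, against 1.85%), an NF-kappaB motif in 20 (13.9%, against 11.3%) and a p53 half-site in 11 (7.64%, against 6.63%).

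The receptor genes of this group were mostly near 1 CPM in treated cells. TNFRSF9, a costimulatory receptor of the TNF family, had 0.634 and 0.242 CPM without and 3.73 and 3.12 CPM with doxorubicin. TNFSF14, a ligand of the same family, had 0.386 and 0.519 CPM in the untreated and 1.69 and 2.18 CPM in the doxorubicin libraries. CSF2RB and IL2RG, shared chains of cytokine receptors, had ratios of 3.50 and 3.26, the tetraspanin CD53 one of 3.31 and the integrin ITGAX, of dendritic cells and macrophages, one of 2.87. Another gene overlaps 51.3% of the exon bases of IL2RG. LCN2, which binds bacterial siderophores, had 0.0827 and 0.242 CPM in the untreated and 1.60 and 1.09 CPM in the doxorubicin libraries. The interferon-inducible GTPase GBP3, the nuclear body protein SP110 and the scavenger receptor CD163L1 had ratios of 3.21, 3.18 and 2.84. Markers that define leukocytes were each under 1 CPM in the treated libraries: of 8 listed, 6 were under 1 CPM in every library, CD68 had 0 counts in all 4, and PTPRC, the common leukocyte antigen, had at most 0.416 CPM. Their summed level was 1.43 and 19.9 CPM untreated and 1.02 and 1.45 CPM treated, with CD14 in untreated replicate 2 giving 16.7 CPM.

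Secreted hormones, growth factors and their binding proteins (8 genes, median ratio 3.28) held the annotated gene with the highest treated level per kilobase of exon. IGFBP3 (chromosome 7, 45912245 to 45921874), the main carrier of insulin-like growth factors in blood, had 240.3 and 172 CPM without and 1197 and 1011 CPM with doxorubicin. Its groups were well separated, with a log2 fold change of 2.27 (SE 0.33), and its treated level was 262 and 221 CPM per kb. IGFBP1, its neighbour at 18.6 kb, had 3.01 and 7.90 CPM in the untreated and 24.7 and 21.3 CPM in the doxorubicin libraries, with the controls in the opposite order to those of IGFBP3. INHBA, the subunit of activin A, had 3 and 6 counts untreated and 144 and 103 treated, or 28.9-fold (15 to 63.9), and was the only one of 26 tested genes of the TGF-beta and BMP list to be taken.

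The pregnancy-specific glycoproteins PSG5 and PSG2 lie on chromosome 19. PSG5 had 3.31 and 3.05 CPM without and 11.5 and 11.6 CPM with doxorubicin. PSG2 had 1.65 and 2.01 CPM in the untreated and 6.0 and 8.38 CPM in the doxorubicin libraries. Their sequences are very similar, so the division of reads between them is uncertain. NTS (the peptide neurotensin), TFF2 (a mucosal trefoil peptide) and NPPB (the natriuretic peptide precursor) had ratios of 3.80, 3.18 and 2.89.

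Matrix and adhesion genes (11 genes, median ratio 3.94) included both secreted matrix and membrane proteins. DCN, the proteoglycan decorin, had 0.469 and 0.623 CPM without and 7.69 and 6.85 CPM with doxorubicin, and all 4 libraries fell into groups that did not come near each other. CEMIP, which degrades hyaluronan, had 8.60 and 2.22 CPM in the untreated and 69.8 and 65.8 CPM in the doxorubicin libraries. FN1, fibronectin, had 6.34 and 6.75 CPM without and 34.9 and 28.8 CPM with doxorubicin. LOX, the oxidase that cross-links collagen, had 36.3 and 37 CPM in the untreated and 152 and 146 CPM in the doxorubicin libraries. The untreated libraries of FN1 and LOX were nearly equal, and the log2 fold change of LOX was 1.87 (SE 0.32). COL6A1, a chain of type VI collagen, had 4.47 and 6.37 CPM without and 21.3 and 20.3 CPM with doxorubicin. COL4A3, a chain of type IV collagen, had 0.800 and 1.04 CPM in the untreated and 3.15 and 3.01 CPM in the doxorubicin libraries.

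The adhesion receptors had ratios of 5.37 (CEACAM1, a carcinoembryonic antigen family member), 4.29 (the cadherin CDH16), 3.89 (CDCP1, a substrate of SRC kinases) and 3.88 (the integrin ITGB3), and the matrix protein TNXB had 3.72. CDCP1 had the highest treated level per kilobase of these, 5.97 and 7.49 CPM per kb, with 9.90 and 7.17 CPM without and 38.9 and 48.7 CPM with doxorubicin. Another gene overlaps 33.2% of the exon bases of ITGB3. On the list of extracellular matrix and epithelial-mesenchymal genes, 26 of 43 tested had both doxorubicin libraries on top on column totals, against 30.3% of all tested genes, and 5 were among the 147. With TMM or RLE factors 23 of the 43 did, against 21.3% (TMM) and 19.2% (RLE) of all tested genes. Each of these counts includes the 5 genes taken. DCN is also a fibroblast marker, and the 8 fibroblast markers summed to 226 and 169.7 CPM untreated and 284 and 284.5 CPM treated. COL1A2 and POSTN were near 0 throughout, and the part of other cells in these values was not tested.

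Redox, detoxification and other metabolic enzymes (12 genes, median ratio 3.88) included a pair of aldo-keto reductases. AKR1C1 had 4.74 and 1.97 CPM without and 31.9 and 29.2 CPM with doxorubicin. AKR1C2, 4.49 kb away, had 2.65 and 0.970 CPM in the untreated and 11.6 and 9.21 CPM in the doxorubicin libraries. These steroid- and carbonyl-reducing enzymes are near-identical in sequence, so their values are not separate observations. MT1F, a metallothionein, had 0.551 and 0.693 CPM without and 3.32 and 3.95 CPM with doxorubicin. AKR1C1, AKR1C2 and MT1F were the genes taken from the list of NRF2 targets and metallothioneins, of which 16 of 24 tested had both doxorubicin libraries on top, against 30.3% of all tested genes. With TMM or RLE factors 14 of the 24 did, against 21.3% and 19.2%. Each of these counts includes the genes taken.

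GGT1, which breaks down glutathione outside the cell, had 13.7 and 12.1 CPM in the untreated and 66 and 49.5 CPM in the doxorubicin libraries. Per kilobase of exon it had the highest treated level of the group (15.1 and 11.3 CPM per kb), but 56.5% of its exon bases overlap another gene. CYP4F11, a fatty acid hydroxylase, had 1.02 and 0.346 CPM without and 8.63 and 5.44 CPM with doxorubicin. ALOX15B, a lipoxygenase, had 0.276 and 0.623 CPM in the untreated and 3.23 and 2.32 CPM in the doxorubicin libraries. UGT1A7 had 3 and 4 counts untreated and 48 and 36 treated, and as it shares its exons with other UGT1A genes its counts cannot be assigned to it alone. SELENOP, a selenium transport protein whose exons overlap CCDC152, had 0.0827 and 0.173 CPM in the untreated and 1.25 and 1.41 CPM in the doxorubicin libraries. The ratios of DDO, HSD17B14, SPTLC3 and RIMKLA, enzymes of D-aspartate, steroid, sphingolipid and dipeptide metabolism, were 4.27, 3.18, 2.85 and 2.79.

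Channels, transporters and receptors (16 genes, median ratio 3.66) were mostly low. CACNA1H, a T-type calcium channel, had 1.27 and 0.727 CPM without and 8.86 and 9.54 CPM with doxorubicin. SYT7, a calcium sensor of exocytosis, had 2.21 and 2.15 CPM in the untreated and 17.8 and 12.2 CPM in the doxorubicin libraries. ATP6V0D2, a subunit of the proton pump, had 0 and 2 counts untreated and 35 and 36 treated, which is 37.4-fold (9.97 to 315). VLDLR, a lipoprotein receptor, had 5.84 and 2.94 CPM without and 20.1 and 19.9 CPM with doxorubicin.

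ABCA1, the exporter of cholesterol, had 0.276 and 0.277 CPM in the untreated and 1.92 and 2.43 CPM in the doxorubicin libraries. ABCC9, a subunit of potassium channels, had 0.386 and 0.208 CPM without and 1.40 and 2.14 CPM with doxorubicin. They were the 2 genes taken of 23 tested ABC transporters. With these 2 included, 8 of the 23 (34.8%) had both doxorubicin libraries on top, near the 30.3% of all tested genes. The store-operated calcium channel gene ORAI3 had the group's highest treated level per kilobase (6.46 and 6.34 CPM per kb), and 52.9% of its exon bases overlap another gene. It had 5.62 and 5.44 CPM in the untreated and 17 and 16.8 CPM in the doxorubicin libraries, and replicates of each group were nearly equal. Ratios of the others were 5.10 (CACNG6, a calcium channel subunit), 4.77 (the folate receptor FOLR3), 4.27 (the phospholipid flippase ATP8A2), 3.92 (the chloride channel CLIC2), 3.41 (the heat-gated channel TRPV3), 3.26 (the thrombin receptor F2RL2) and 3.02, 2.81 and 2.66 for the G protein-coupled receptors GPR173, ADGRB1 and GPR1.

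Cytoskeletal, keratin and envelope genes (6 genes, median ratio 3.63) included KRT81, a hair keratin, with 4.38 and 2.84 CPM without and 27.3 and 17.4 CPM with doxorubicin. SPRR2D, a protein of the cornified envelope, had 0.0276 and 0.277 CPM in the untreated and 3.21 and 1.60 CPM in the doxorubicin libraries. CRYAB, a small heat shock protein, had 0.855 and 0.658 CPM without and 7.37 and 5.08 CPM with doxorubicin and overlaps HSPB2. MAP1B, a microtubule-associated protein, had 16.4 and 6.41 CPM in the untreated and 58.3 and 55.1 CPM in the doxorubicin libraries, and ABLIM3 and FSCN2, which bind actin, had ratios of 3.37 and 2.64. With S100A8 and S100A9, KRT81 and SPRR2D were the genes taken from the list of squamous differentiation and keratins. On column totals 10 of its 20 tested genes had both doxorubicin libraries on top, against 30.3% of all tested genes. These 10 include the genes taken, which the rule puts on top. The squamous epithelial markers summed to 1028 and 1277 CPM untreated and 1814 and 1534 CPM treated, nearly all from KRT17 and ITGB4, while 4 of the 8, KRT5, KRT6A, TP63 and DSG3, stayed under 1 CPM in every library. The simple epithelial markers summed to 5905 and 4759 CPM untreated and 3540 and 3038 CPM treated, and of 4 tested 1 had both doxorubicin libraries on top and 1 had both below. The part of a squamous component in the values of these genes was not tested.

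Intracellular signalling and regulatory genes (8 genes, median ratio 3.78) were led by PPP2R2C, a regulatory subunit of protein phosphatase 2A, with 0.221 and 0.173 CPM without and 3.96 and 3.48 CPM with doxorubicin. ABR had 0.414 and 0.312 CPM in the untreated and 4.37 and 3.34 CPM in the doxorubicin libraries. ARFGEF3, of the ARF exchange factor family, had 0.965 and 0.727 CPM without and 6.56 and 7.11 CPM with doxorubicin. In each of these the untreated libraries were both under 1 CPM and the groups far apart. ARHGEF37 and MCF2 had ratios of 3.44 and 3.01, the transcription factor CREB5 one of 4.12, the calcium-binding protein NECAB2 one of 3.23 and the phosphatase PTPRR one of 2.99.

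Named non-coding RNAs and pseudogenes (13 genes, median ratio 3.38) were led by LINC01133, with 0.221 and 0.416 CPM without and 7.17 and 4.32 CPM with doxorubicin. NMRAL2P, a pseudogene known as an NRF2 target, had 0.965 and 0.381 CPM in the untreated and 11 and 8.70 CPM in the doxorubicin libraries. LUCAT1, a long non-coding RNA induced by stress, had 9.13 and 4.85 CPM without and 29.1 and 27.3 CPM with doxorubicin. LINC02154 had 0.165 and 1.49 CPM in the untreated and 6.21 and 10.6 CPM in the doxorubicin libraries, far apart between the controls. Beside MIR210HG, the other 8 genes of the group (SEMA3B-AS1, DUSP5P1, LINC01588, CD99P1, LINC00520, FAM106A, LINC01234 and CASC15) had ratios from 2.76 to 4.30. SEMA3B-AS1 shares 1.29% of its exon bases with its antisense partner SEMA3B. FAM106A shares 60.6% with other genes, and NMRAL2P shares 33.9% with another entry of its own name. How reads in these shared bases were assigned is uncertain, as use of strand in counting is not stated.

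The 15 genes known only by a clone name had a median ratio of 3.17, the lowest 2.61. AC021534.1 had 0.303 and 0.0693 CPM without and 7.55 and 4.10 CPM with doxorubicin. AC079466.1 had 2.29 and 0.208 CPM in the untreated and 29.1 and 14.4 CPM in the doxorubicin libraries. In 13 of the 15 untreated replicate 1 was the higher control. The annotation used here (GENCODE 44) did not hold these 15 names, which come from release 31.

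The 14 genes left without a group had a median ratio of 2.89. FAM129A, a regulator of translation under stress, had 52.7 and 22.4 CPM in the untreated and 139 and 142 CPM in the doxorubicin libraries. MEGF6, a protein with EGF-like repeats, had 36 and 16 CPM without and 108 and 100.4 CPM with doxorubicin. Both were among the 10 genes of the set with the highest doxorubicin CPM, and in both untreated replicate 1 exceeded untreated replicate 2 by more than 2-fold. TCAF2, which regulates a cold-sensing channel, had 1.08 and 0.762 CPM in the untreated and 7.49 and 7.22 CPM in the doxorubicin libraries. The ratios of BFAR, KLHDC7B, TMEM255B, SDCCAG8, LSM14A, PCED1B, CLGN, SPOCD1, TTC39A and TMEM45B ran from 2.70 to 5.19.

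**Figure D4:**
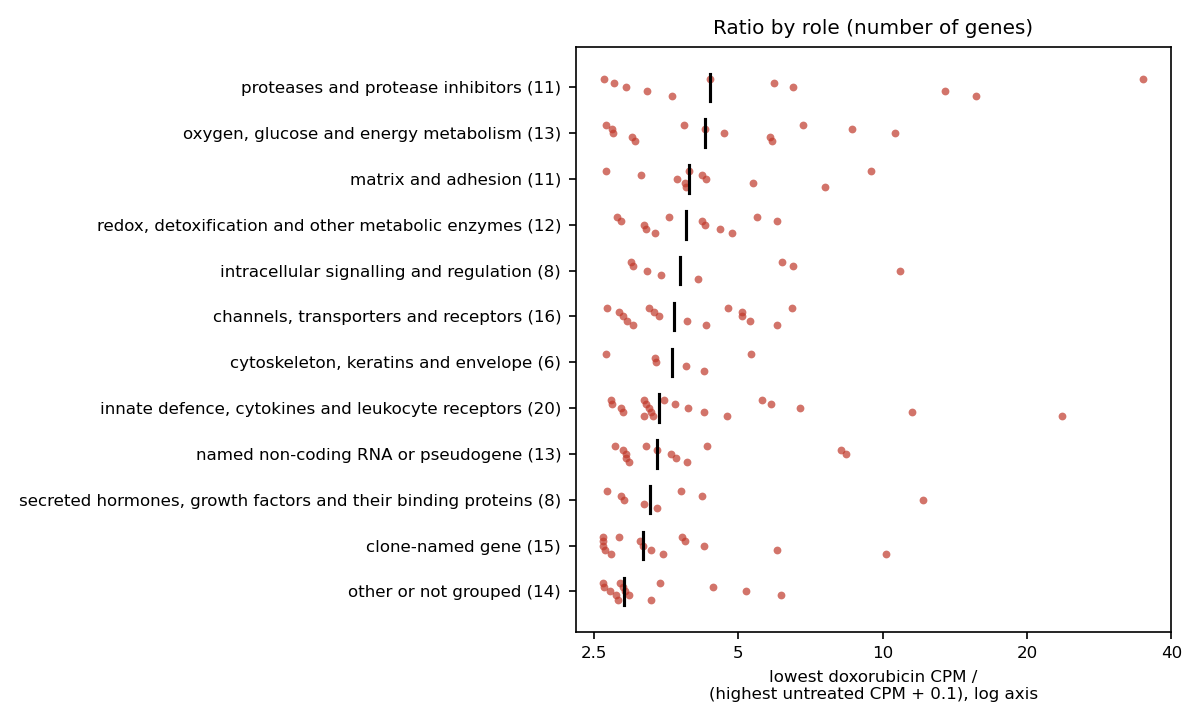
Ratio (horizontal, log axis) of each of the 147 genes by role, with the number of genes in parentheses and the median as a black bar. The medians run from 4.36 for proteases and their inhibitors to 2.89 for ungrouped genes, and the groups overlap over most of their range.

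Across functions, 32 of the 147 genes (21.8%) were on at least 1 of 18 functional lists, against 443 of all ranked genes (3.27%), and the lists had been drawn up with earlier results of these data known. Some lists held none of the 147. Of 42 tested genes on the list of p53-activated targets 0 were among them. Of these 42, 10 (23.8%, against 30.3% of all tested genes) had both doxorubicin libraries on top while 2 had both below. The 0 holds for the listed genes only. Targets outside the list were not searched for, and IGFBP3 was listed with growth factor receptors and ligands. The lists of AP-1 and immediate early genes, of NF-kappaB feedback and of the cell cycle also held none, and on the last 20 of 37 tested genes had both doxorubicin libraries below both untreated ones, against 11.5% of all tested genes. INSIG2 was the only one taken of 26 tested genes of sterol and fatty acid synthesis, where it is an inhibitor, and 16 of the 26 had both doxorubicin libraries below. With TMM or RLE factors 19 did, against 17.9% (TMM) and 20.2% (RLE) of all tested genes. Single genes came from the apoptosis list (CASP14), the acute phase list (LCN2) and the ATF4 and unfolded protein response list (VLDLR).

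Some gene features that the ranking did not use follow, with no test. Of the 147 genes 132 were found in the annotation, and 119 of these (90.2%) were protein coding, against 91.9% of ranked genes. Another 12 (9.09%) were long non-coding RNAs, against 4.83%. The median merged exon length of the 132 was 4.95 kb (5.30 kb over ranked genes) and their median GC content 48.8% (48.0%). In 11 of the 132 (8.33%) over 20% of exon bases were shared with another gene, against 12.5% of ranked genes with annotation. The 132 genes lay on 23 chromosomes, and 25 of them had another of the set within 500 kb, in 16 pairs. Some of these pairs were family clusters such as the serpins, calgranulins, aldo-keto reductases and IGF-binding proteins described above. Others were neighbours of different families such as ARNT2 and CEMIP, 181 kb apart on chromosome 15, and CACNA1H and TPSG1, which overlap. No such count was made over the ranked genes, so whether the set is clustered was not tested.

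Distance to the p53-bound enhancers that the study defined from other data was also read. A p53-bound enhancer lay within 100 kb of the start of 1 of the 132 annotated genes (0.758%), NPPB at 49.5 kb, against 3.45% of annotated ranked genes. Within 500 kb there were 8 (6.06%), against 12.6%.

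Which genes made up the set varied most with the controls. When the ranking was repeated without untreated replicate 1, 29 of the 150 stayed among the first 150, because untreated replicate 2 alone then set the denominator for every gene. Without untreated replicate 2, 90 stayed, and without doxorubicin replicate 1 or 2, 108 or 115. In each of these rankings all 147 genes kept a ratio above 1. That was fixed in advance, since leaving out a library can only raise a ratio or keep it. With TMM or RLE scaling 141 stayed, and with group means 127. An offset of 1 in place of 0.1 kept 86, and a minimum of 5 CPM kept 67. With that minimum only 65 of the 147 genes were still ranked, so the loss was mainly of genes under it.

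**Figure D5:**
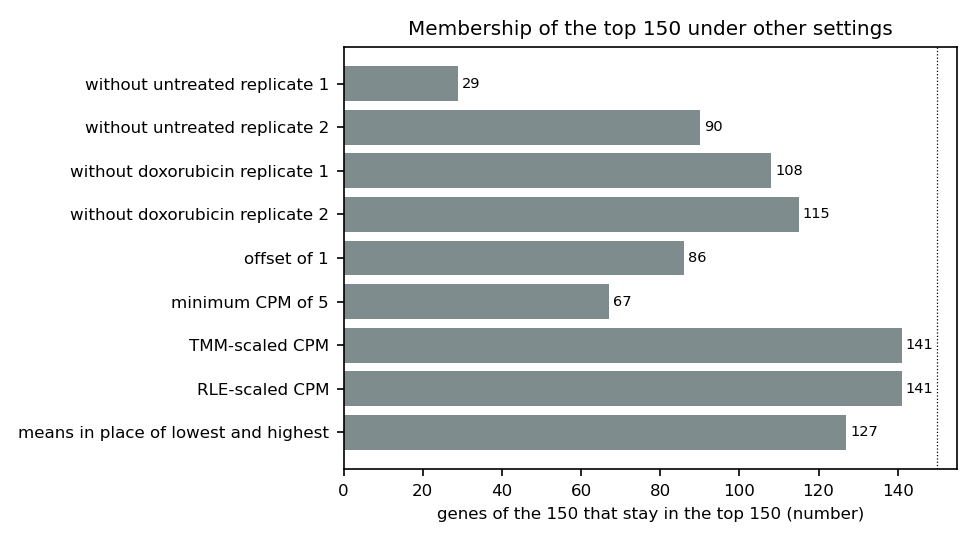
Number of the 150 genes (horizontal, from 0) that stay among the first 150 when the ranking is repeated under another setting, with the dotted line at 150. Scaling kept 141, whereas leaving out untreated replicate 1 kept 29.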

How the data were processed

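RNA of 2 untreated and 2 doxorubicin-treated cultures was sequenced. Per the paper's methods, the authors used Cutadapt and FastQC to clean the reads, HISAT2 to align them and HTSeq to count them per gene, and the submitters' processing notes name hg38. They deposited 1 file of raw counts per library, without normalization, whose header names the GENCODE release 31 basic annotation. The layout of these files resembles featureCounts output, so how reads in overlapping genes were counted is uncertain. Tool versions and the use of strand are not given in the sources used here. Replicate numbers came from the titles. Library totals were 36272180 and 28876633 counts (untreated) and 34313603 and 27572740 counts (doxorubicin), so 3 counts were 0.0827 to 0.109 CPM. Intervals of pooled ratios were exact, conditional on the total, at a level of 95%, and cover counting error only.

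Genes were ranked on CPM as described in the report. Background tests over all genes used edgeR 4.0.16 in R 4.3.3 (filterByExpr, TMM, glmQLFit and glmQLFTest, Benjamini-Hochberg adjustment), with DESeq2 1.42.0 as an alternative. Both were run on simulated counts before use. Each simulation gave all genes the same dispersion and held no outlying library, so it does not show the power of the tests in these data. The log2 fold changes of single genes are those of edgeR. Their SE was back-calculated as the size of the log2 fold change divided by the square root of the test's F statistic. Other computations used Python 3.11.15 with pandas 2.3.3, NumPy 2.4.6 and SciPy 1.17.1. Coordinates and exon overlaps came from GENCODE 44 (GRCh38) by symbol or RefSeq synonym, and sequences from RefSeq. Motifs were searched on both strands in windows of 250 bases before to 50 after each start. The positions of p53-bound enhancers are those the study lists for hg38, and no value of theirs was used.

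Genes were named by rule (the 30 highest ranked with a symbol, those on a gene list, the 10 with the highest lower doxorubicin CPM, the 3 of lowest rank, the 3 just past rank 150 and families), and every other gene named was chosen after its values were seen, as were the roles. The genes and lists were chosen with earlier results of these data known. Of the 150 genes, 3 are not reported here. Same-numbered libraries did not deviate together from their group means (r = 0.0219 across 17479 genes), so the replicate number was a block only in an alternative. The other alternatives left out each library, changed the offset, the minimum CPM, the scaling, the filter on low counts, the ranking value or the enhancer distance.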

Additional observations from a re-analysis of the deposited data

How the results depend on the processing

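The set rests on 2 libraries per group, of which untreated replicate 2 stood apart, so the choice of control libraries decided much of it. Genes kept of the 150 ranged from 29 to 115 when 1 library was left out, with 29 without untreated replicate 1 and 90 without untreated replicate 2. They were 86 with an offset of 1 and 67 with a minimum of 5 CPM, under which only 65 of the 147 were still ranked. The median ratio, 3.48 as reported, ranged from 3.93 to 5.23 when 1 library was left out (5.23 without untreated replicate 1), was 3.31 with TMM and 3.18 with RLE factors, and was 1.96 with an offset of 1, which shrinks the ratio of low genes by construction. With that offset 127 of the 147 ratios were above 1. Genes on the functional lists, 32 as reported, ranged from 6 to 35 when 1 library was left out, with 6 without untreated replicate 1, and were 42 with a minimum of 5 CPM. Without untreated replicate 1, 39 ratios of named genes moved by more than the replicate spread and 38 by less. Among those that moved, ARNT2 went from 2.73 to 25.3 and SLC2A3 from 5.89 to 44.3. Within 500 kb of a p53-bound enhancer lay 8 genes in place of 1 within 100 kb. Called genes over the whole table were 89 of 15784 (0.564%) with DESeq2. With the replicate number as a block they were 20 of 17479 (0.114%), of which 16 were higher (0.0915%). Of the 147 described genes 43 were called by DESeq2 and 15 with the block. With 1 library left out, called genes ranged from 0 to 8697 (8697 without untreated replicate 1, 815 without untreated replicate 2, and 0 without either doxorubicin library), and called members from 0 to 147 (147 without untreated replicate 1 and 144 without untreated replicate 2). These fits take the lone library to vary like the other group. Genes tested in them were 19606 and 18356 without untreated replicate 1 or 2, and 19375 and 19873 without doxorubicin replicate 1 or 2. The ranking used the same contrast as every fit here, so no count of called members is evidence about the genes. RLE factors and no filter called 0 genes, with 798 and 1543 at an unadjusted p under 0.05. The cause of these differences was not tested. Leaving out a library can only raise a ratio or keep it. So neither the kept direction of all 147 ratios nor their higher medians is a check on them. Counts of 3 or fewer limit the precision in 25 genes.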
